A study of Rattus norvegicus with 15 samples.

Results

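The miR-30 family was followed across the hearts of male Sprague-Dawley rats that were diabetic with swings of plasma glucose, diabetic with steadily high glucose, or vehicle-treated. Its members were chosen by name as the miR-30 forms that carry the family's common 5′ end: rno-miR-30a, rno-miR-30b-5p, rno-miR-30c, rno-miR-30d and rno-miR-30e (rno marks the rat and is left out below), which are 5 of the 350 rat microRNAs (miRNAs) on the array. Forms marked with a star or as 3p, which come from the other arm of the same hairpins, were not counted as members.

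The GF group (for glucose fluctuation) held rats given streptozotocin intravenously at 60 mg/kg, with plasma glucose above 300 mg/dL, that in addition went without food for 24 h and received insulin into the peritoneum at 0.5 IU/kg. The DM group held rats given the same streptozotocin dose and meeting the same glucose limit, with no fast or insulin given in the labels, and the Veh group held rats given vehicle. Streptozotocin is a toxin of the pancreatic beta cells, which make insulin. Each group had 5 one-colour arrays, made from 100 ng of heart RNA each, and GF arrays carry the numbers 1, 2, 4, 5 and 6 of the labels. The fast and the insulin were given to GF rats alone and cannot be told apart from glucose swings, and the toxin cannot be told apart from diabetes in either diabetic group.

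miRNAs are short RNAs that guide a silencing complex to messenger RNAs, mostly by pairing of the seed, bases 2 to 8 counted from the 5′ end. Members of a family share the seed and so share many predicted targets. In heart, miR-30 is carried abundantly by muscle cells and is known for repressing connective tissue growth factor, a driver of matrix production, and for repressing genes of autophagy and apoptosis in cultured heart muscle cells.

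The sequences show how alike the members are and where they part. The RefSeq table of the GRCr8 assembly gave mature sequences for 3 of the 5 members, printed 5′ to 3′ with the seed in capitals, together with miR-384-5p, the 1 other miRNA on the array found with that seed among the 279 of 350 array names matched in the table.
miR-30a: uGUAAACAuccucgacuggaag
miR-30e: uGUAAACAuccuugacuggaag
miR-30c: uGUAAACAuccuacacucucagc
miR-384-5p: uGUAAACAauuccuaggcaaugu

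Between miR-30a and miR-30e a single base differs, C13U counted from the 5′ end of miR-30a, so both have the same seed and the same 3′ end. miR-30c shares its first 12 bases with both and then parts from them, and it is 23 bases long where the other two have 22. miR-384-5p shares only the first 8 bases with the members. It was well above background on 0 of 15 arrays, although the scanner software detected it on 2. Among the matched names, only miR-30 members with this seed were therefore measured above background, and the unmatched names were not checked. How far a probe for 1 member also reads another was not tested.

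In GRCr8, miR-30a lies at chr9:33233946-33233967 on the plus strand and miR-30e at chr5:139637504-139637525 on the minus strand. miR-30c has a copy near each of them, at chr9:33253695-33253717 (plus strand, Mir30c2) and at chr5:139634505-139634527 (minus strand, Mir30c1). Mir30e and Mir30c1 both lie inside Nfyc, which encodes a subunit of the transcription factor NF-Y. Mir30b and Mir30d are neighbours, with 0 annotated genes wholly between them. An array signal for miR-30c sums both copies.
The hairpin of Mir30a, chr9:33233941-33234011 on the plus strand, is printed to show both arms, in capitals, since the array measured each of them.
Mir30a: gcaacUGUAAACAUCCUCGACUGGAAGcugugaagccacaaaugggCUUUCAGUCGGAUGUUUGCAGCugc

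The scanner software detected 166 to 190 miRNAs on an array, 165 were tested, and the number of arrays limits the precision. In 5 cases, 2 arrays of 1 group on different slides differed by less than the error that the software states (reduced chi-square 0.252 to 0.565; 1.01 or more in all other pairs) and were counted as 1 sample, which left 3 GF, 3 DM and 4 Veh samples. Whether the arrays come from separate animals is not in the labels, and p-values then measure only the spread between these samples, which may be technical. The heart label was borne out by its muscle miRNAs: all 5 of the striated muscle list (miR-1, miR-133a, miR-133b, miR-208 and miR-499) were well above background on every array, while miR-122 of liver, miR-124 of neurons and miR-375 of islets were above background on none. miR-9, the other neural miRNA of that list, was above background on all 15 arrays and read 4.54 ± 0.21 in GF (SD, n = 3), 4.93 ± 0.40 in DM (SD, n = 3) and 5.07 ± 0.10 in Veh (SD, n = 4) on the log2 scale used below, where the floor is 4.31. Array brightness, the 75th percentile of signal, was 2780 ± 529 in GF (SD, n = 3), 2027 ± 256 in DM (SD, n = 3) and 2205 ± 261 in Veh (SD, n = 4); its 3 contrasts had exact permutation p of 0.2 or more (two-sided, adjusted p = 0.343 each). Values below are log2 of the signal after each array was scaled to that percentile. In whole heart tissue, fewer cells of a type and less RNA per cell cannot be told apart.

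All 5 members were measured well. Each had 2 probes, repeated on 10 spots, and all 10 probes were well above background on all 15 arrays. The median spread between the spots of a probe was 5.01% to 15.4% of its signal. The brighter probe stands for each member below, and levels of different members are not set against each other, because probes differ in how strongly they bind.

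No member passed the threshold, an adjusted p under 0.05, in any comparison of the groups. In GF against Veh, 0 of 5 members passed, where 7.88% of the 165 tested miRNAs did, a count of 13 that lay between 0 and 28 when 1 sample was left out. In DM against Veh 0 of 5 passed, as did 0% of tested miRNAs, and in GF against DM again 0 of 5 and 0%. At an unadjusted p under 0.05, 0 members passed in any of the 3 contrasts, against 30.9% of tested miRNAs in GF minus Veh, 8.48% in DM minus Veh and 10.9% in GF minus DM (limma). The 95% intervals of the 5 members in the 3 contrasts lay between a ratio of 0.782 and one of 1.27.

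miR-30a, one of the 2 steadiest members, read 12.60, 12.53 and 12.59 in the GF samples, 12.51, 12.53 and 12.62 in the DM samples, and 12.58, 12.41, 12.49 and 12.54 in the Veh samples. The groups overlapped, and all 10 samples lay within 0.21 of each other, a range set by Veh 2 at the low end. The GF minus Veh difference was 0.07 (SE 0.07), a ratio of 1.05 with a 95% interval of 0.943 to 1.17 (limma, adjusted p = 0.524). DM minus Veh was 0.05 and GF minus DM was 0.02, with limma adjusted p of 0.791 and 0.923. Both probes of miR-30a gave the same sign in all 3 contrasts, and they followed each other over the 10 samples with a Pearson r of 0.98.

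miR-30e, which differs from miR-30a by 1 base, was the one member whose GF and Veh samples did not overlap. It read 12.77, 12.68 and 12.83 in the GF samples, 12.82, 12.88 and 12.91 in the DM samples, and 12.92, 12.85, 12.89 and 12.84 in the Veh samples. Every GF sample lay below every Veh sample, while GF and DM overlapped. In GF against Veh, 1 of 5 members and 26.7% of tested miRNAs had groups that did not overlap. In DM against Veh the groups of all 5 members overlapped, with 6.06% of tested miRNAs not overlapping, and in GF against DM again all 5, with 14.5%.

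The GF minus Veh difference of miR-30e was -0.11 (SE 0.07), a ratio of 0.924 with a 95% interval of 0.834 to 1.03 (limma, adjusted p = 0.268). Without the sample of GF replicates 2 and 4, the lowest of the 10, it was -0.07, and the range over all samples left out in turn was -0.15 to -0.07. It passed when the 15 arrays were taken as independent (-0.14, SE 0.05, limma adjusted p = 0.0333), where 36.4% of tested miRNAs passed. It did not pass with the replicate number as a block over the 15 arrays (-0.16, limma adjusted p = 0.0544; 30.3% of tested miRNAs passed), or with that block over GF and Veh arrays alone (-0.15, limma adjusted p = 0.0923; 23.0% passed), a fit added after seeing the data. With the close pairs as a random block it was -0.12 (limma adjusted p = 0.238). Within slide 1 the difference was -0.15 and within slide 2 it was -0.13. The slides do not give separate estimates, since GF 1, GF 2 and Veh 1 of slide 1 are close pairs of GF 5, GF 4 and Veh 3 of slide 2. With the 75th percentile taken over all probes it was 0.02, and with no scaling it was 0.21 where the median of all tested miRNAs was 0.25. The 2 probes of miR-30e differed in size: the brighter gave -0.11 and the dimmer -0.03, with an r of 0.78 between them, the lowest of the 5 members. GF minus DM was -0.11 (limma, adjusted p = 0.526) and -0.06 without GF 2 and 4, and DM minus Veh was -0.0067 (limma, adjusted p = 0.983).

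**Figure D1:**
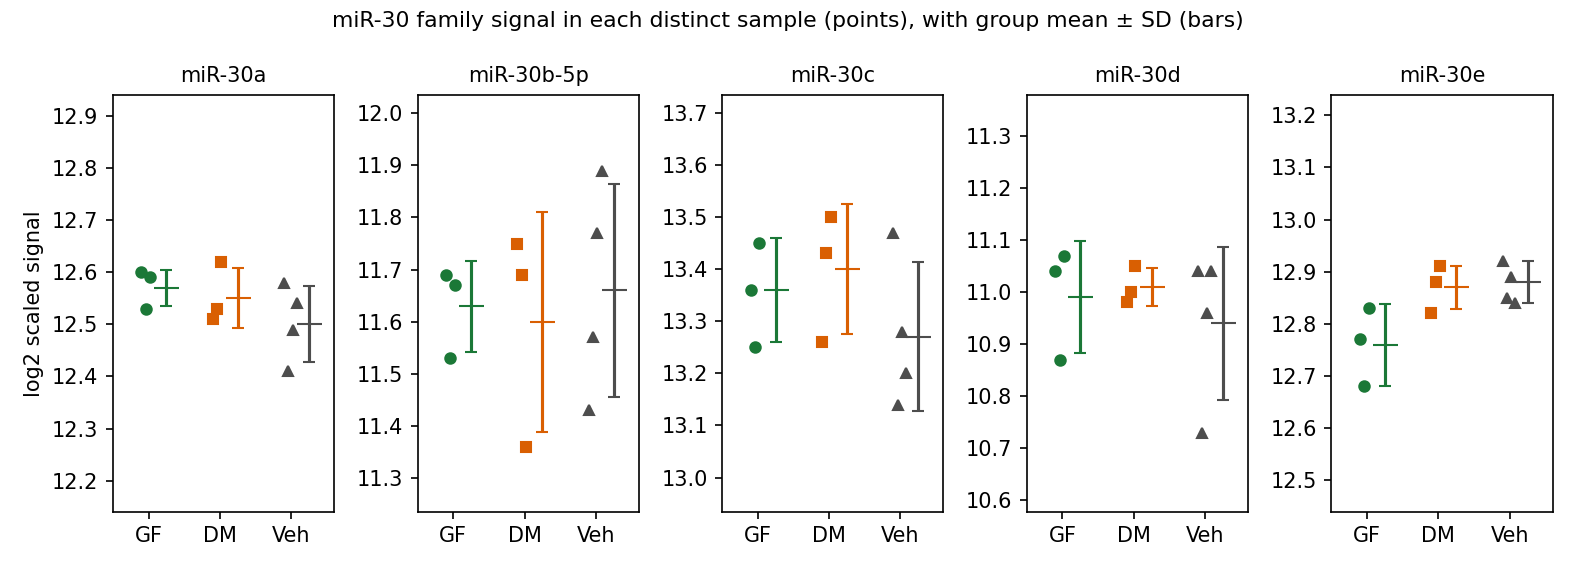
Log2 scaled signal (vertical axes, each spanning 0.8 units) of the 5 members in the GF, DM and Veh groups (horizontal axes). Points are distinct samples and bars are the group mean ± SD; miR-30a and miR-30e lie in narrow bands, miR-30b-5p spreads most, and the GF points of miR-30e lie below its Veh points.

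miR-30c, the member made from 2 gene copies, read 13.36, 13.25 and 13.45 in the GF samples, 13.26, 13.43 and 13.50 in the DM samples, and 13.47, 13.14, 13.28 and 13.20 in the Veh samples. In the Veh group 1 sample, the average of replicates 1 and 3, was as high as the upper GF and DM samples, and the groups overlapped. The DM minus Veh difference of miR-30c was 0.13 (SE 0.10), a ratio of 1.09 with a 95% interval of 0.934 to 1.27 (limma, adjusted p = 0.651). Leaving out DM 3 and 5, 1 sample, gave 0.07, and leaving out Veh 2 gave 0.08, while leaving out DM 1, or Veh 1 and 3, gave 0.19. GF minus Veh was 0.08 and GF minus DM was -0.04, with limma adjusted p of 0.604 and 0.853.

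miR-30d, encoded beside miR-30b, read 11.04, 10.87 and 11.07 in the GF samples, 10.98, 11.00 and 11.05 in the DM samples, and 11.04, 10.73, 10.96 and 11.04 in the Veh samples. The lowest samples were Veh 2 and the average of GF 2 and 4, the same samples that were lowest within their groups for miR-30a and miR-30c. The differences were 0.05 in GF minus Veh, 0.06 in DM minus Veh and -0.02 in GF minus DM, with limma adjusted p of 0.804, 0.795 and 0.945. Without Veh 2 the GF minus Veh difference was -0.025.

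miR-30b-5p was the most variable member. It read 11.69, 11.53 and 11.67 in the GF samples, 11.75, 11.69 and 11.36 in the DM samples, and 11.43, 11.57, 11.77 and 11.89 in the Veh samples. The low values came from 1 DM sample (replicates 3 and 5) and 1 Veh sample (replicates 1 and 3), and the groups overlapped. The arrays within those pairs read 11.32 and 11.40 in DM, and 11.44 and 11.41 in Veh, so each pair was low on both of its slides. The differences were -0.03, -0.06 and 0.03 in GF minus Veh, DM minus Veh and GF minus DM, with limma adjusted p of 0.896, 0.866 and 0.945. The dimmer probe gave 0.01 in GF minus Veh, the opposite sign, and 0.0058 in DM minus Veh.

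**Figure D2:**
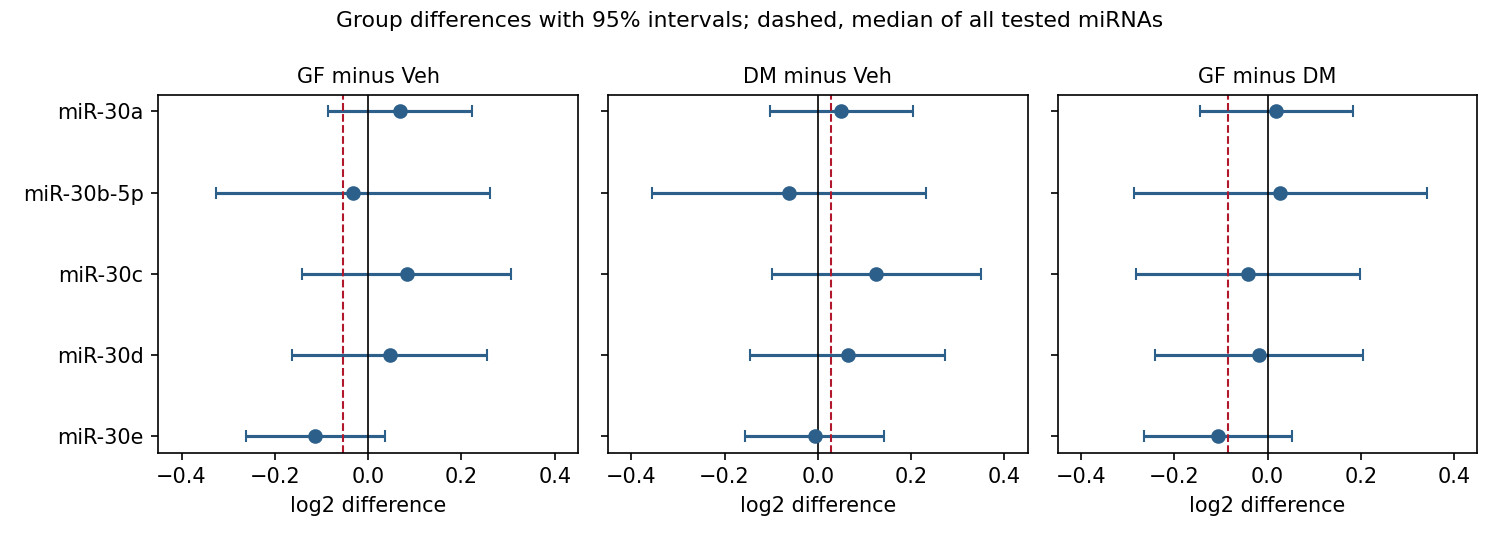
Log2 differences (horizontal axes) of the 5 members (vertical axis) in GF minus Veh, DM minus Veh and GF minus DM, over distinct samples. Points are limma estimates with 95% intervals, the solid line is 0 and the dashed line is the median of all tested miRNAs (-0.055, 0.027 and -0.084); every interval spans 0.

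The members differed in how steady they were. The pooled SD within groups was 0.06 for miR-30a and 0.05 for miR-30e, against 0.11 for miR-30d, 0.13 for miR-30c and 0.18 for miR-30b-5p, with a median of 0.15 over the tested miRNAs. Ordered by that SD from the lowest, miR-30e was number 5 and miR-30a number 9 of 165, and miR-30b-5p was number 100. Members are among the probes that set the scaling, 10 of 254, and on 5 of 15 arrays a miR-30 probe lay at the percentile itself. It was a probe of miR-30a on DM 3, GF 5 and GF 6 and of miR-30e on DM 2 and DM 5, the same 2 members that were steadiest. Whether the scaling changed their SD and rank was not tested. With the miR-30 probes left out of the percentile, an alternative chosen after seeing the data, the lowest adjusted p of any member was 0.300 in limma (GF minus Veh), and miR-30e was -0.09 in that contrast. The SE of that contrast was then 0.059 for miR-30a and 0.062 for miR-30e, beside 0.068 and 0.066 in the scaling used here.

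Across the 10 samples, miR-30a moved with miR-30c and miR-30d, and miR-30b-5p did not. Pearson's r was 0.85 for miR-30a and miR-30d, 0.83 for miR-30a and miR-30c and 0.72 for miR-30c and miR-30d. It was 0.11 for miR-30b-5p and miR-30d, whose genes are neighbours, and -0.50 for miR-30b-5p and miR-30c. It was 0.06 for miR-30a and miR-30e, which differ by 1 base. These values describe 10 samples that share arrays, slides and scaling, and with no scaling every pair had an r of 0.676 or more. The miRNAs outside the family most like its mean profile, the highest r out of 160, were miR-664 (r = 0.93), miR-23a (0.83) and miR-186 (0.78). That profile, the mean of the centred members, was lowest in Veh 2 (-0.13) and in GF 2 and 4 (-0.09). It lay between -0.00084 and 0.06 in the other samples, so these r rest largely on 2 samples.

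The ratio of 2 members within a sample does not depend on the scaling. All 10 pairs were compared in the 3 contrasts, 30 tests in all, and 0 passed after adjustment. With 3 against 4 samples the smallest two-sided exact permutation p is 0.0571, and with 3 against 3 it is 0.1, so no single test could pass 0.05. Only the difference of a ratio between groups is read here, not its level.

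All ratios whose groups did not overlap had miR-30e in them, so they share its values and are not separate results. The log2 ratio of miR-30a to miR-30e was -0.18, -0.15 and -0.24 in the GF samples, -0.32, -0.34 and -0.29 in the DM samples, and -0.34, -0.44, -0.40 and -0.30 in the Veh samples. All GF samples lay above all DM and all Veh samples. The GF minus Veh difference was 0.18 (exact permutation p = 0.0571, adjusted p = 0.571 over the 30) and GF minus DM was 0.13 (exact permutation p = 0.1, adjusted p = 0.571).

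The ratio of miR-30c to miR-30e also lay higher in all GF than in all Veh samples, by 0.20 on average (exact permutation p = 0.0571, adjusted p = 0.571), and that of miR-30d to miR-30e lay higher in all GF than in all DM samples, by 0.09 (exact permutation p = 0.1, adjusted p = 0.571). In total 2 of 10 member pairs did not overlap in GF against Veh, where 29.3% of all pairs of tested miRNAs did not. In DM against Veh 0 of 10 did not overlap, with 8.65% of all pairs, and in GF against DM 2 of 10, with 12.3%. With the mean of both probes in place of the brighter one, the miR-30a to miR-30e difference was 0.15 in GF minus Veh and 0.10 in GF minus DM.

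**Figure D3:**
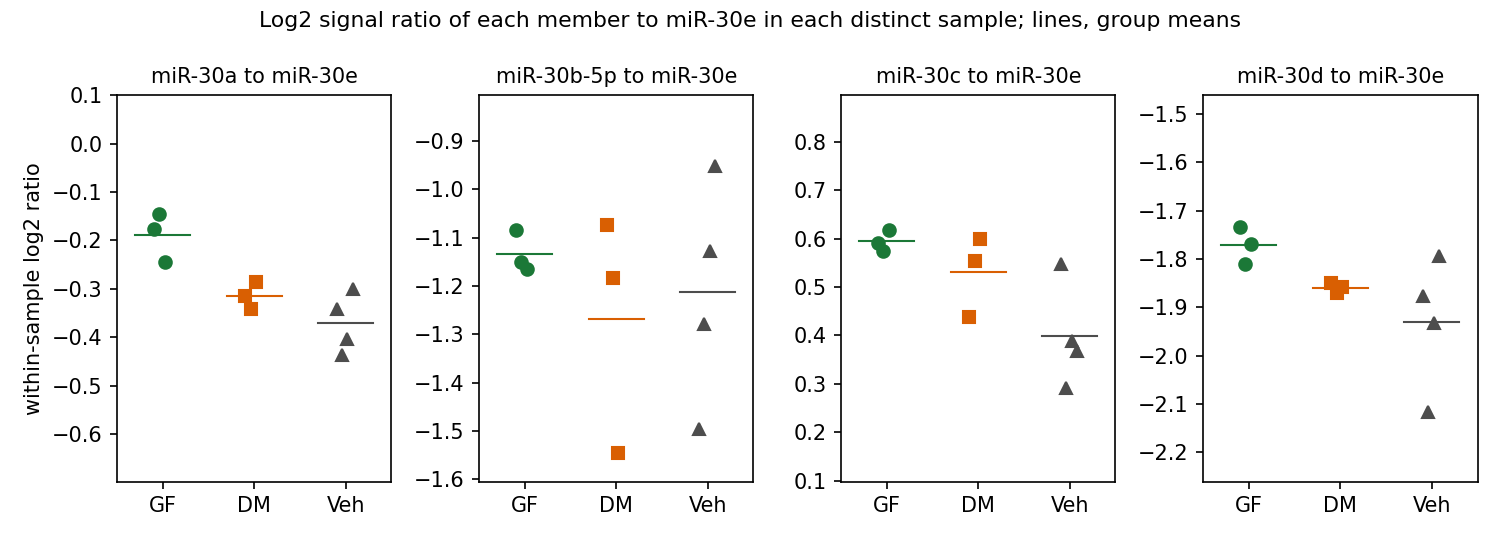
Within-sample log2 ratio (vertical axes, each spanning 0.8 units) of miR-30a, miR-30b-5p, miR-30c and miR-30d to miR-30e in the GF, DM and Veh groups (horizontal axes). Points are distinct samples and lines are group means; the GF points of miR-30a lie above all DM and Veh points, and miR-30b-5p spreads most.

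The size and sign of the small member differences depended on the scaling. Scaling to a percentile or to control spots, and no scaling, differ by 1 factor per array, so between them the members and the median of the tested miRNAs move together by construction. With no scaling, the members' GF minus Veh differences lay between 0.21 and 0.40 and the median of all tested miRNAs was 0.25, against -0.055 after scaling. In GF minus DM with no scaling, members lay between 0.34 and 0.47 and the median was 0.35. In DM minus Veh scaled to the hur control spots, members lay between 0.11 and 0.30 and the median was 0.19. In these 3 comparisons 0 of 5 members passed (limma), where 10.9%, 0.606% and 0% of tested miRNAs did. In GF minus Veh, 4 of 5 members lay above the median of all tested miRNAs in the scaling used here and with no scaling, the exception being miR-30e. With the normexp background correction all 5 lay above it, with miR-30e at -0.095 and the median at -0.099. Quantile normalization, which is not 1 factor per array, put the GF minus Veh median of all tested miRNAs at 0.039, with miR-30e at -0.11 and miR-30a at 0.05.

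**Figure D4:**
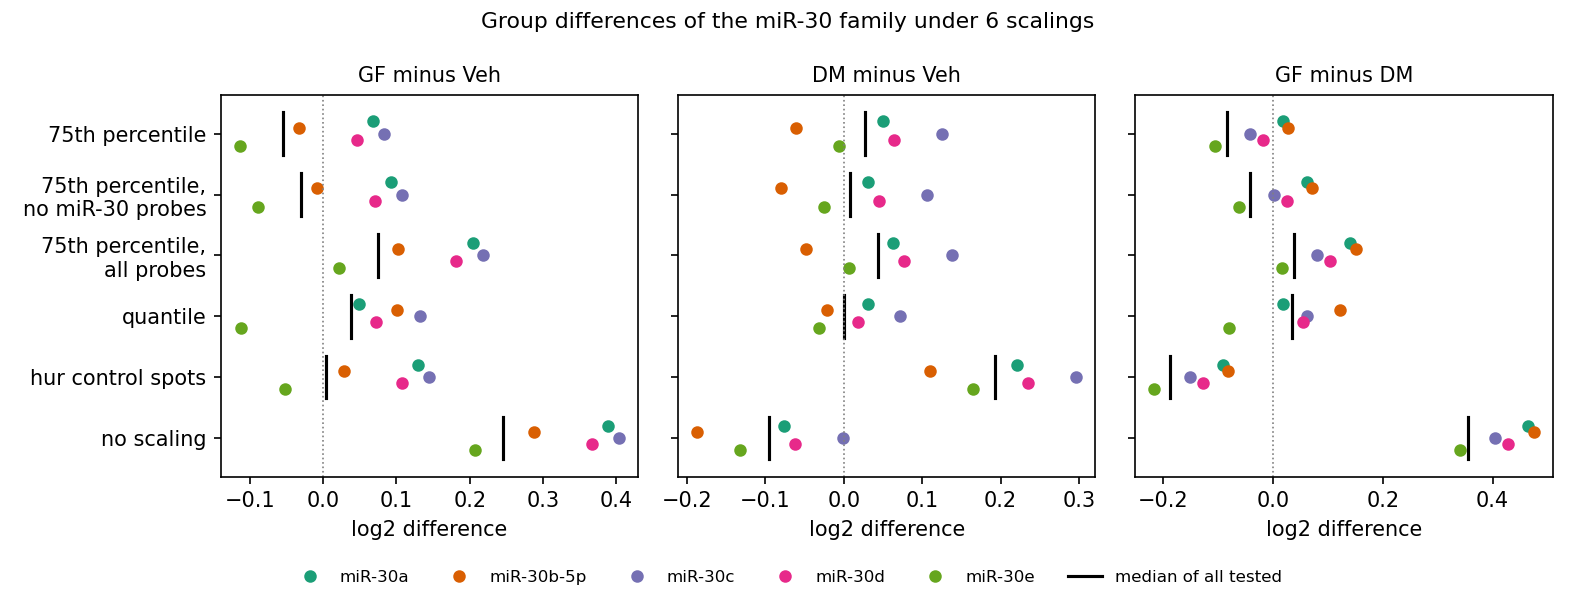
Log2 differences (horizontal axes) of the 5 members, as coloured points, under 6 scalings (vertical axis), for GF minus Veh, DM minus Veh and GF minus DM. Black bars are the median of all tested miRNAs, which moves with the members by construction except under quantile normalization; in GF minus Veh miR-30e lies left of the bar under every scaling shown.

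The opposite arms of the hairpins were measured too. miR-30a* read 9.48 ± 0.11 in GF (SD, n = 3), 9.55 ± 0.11 in DM (SD, n = 3) and 9.39 ± 0.16 in Veh (SD, n = 4), and 0 of 6 star or 3p forms passed in any contrast in limma (adjusted p of 0.556 or more). The authors' deposited table of 35 miRNAs lists 0 members but does list miR-30c-2*, with a p-value of 0.0367 from their test of 3 groups. Its log fold change there was 0.438 in GF against Veh, from values that were not scaled between arrays. After scaling, miR-30c-2* was at 0.09 in GF minus Veh (limma, adjusted p = 0.592).

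Other miRNAs known for a role in cardiac matrix gave no call either. miR-133a and miR-133b, which with miR-30 are known to repress connective tissue growth factor, were at -0.34 and -0.32 in GF minus Veh (limma, adjusted p of 0.126 and 0.0910). miR-29a, miR-29b and miR-29c, which repress collagens, were at 0.31, 0.34 and 0.19, and miR-21, a miRNA of fibroblasts and stress, at 0.32. Of these 6 miRNAs 0 passed in any contrast, and their median was 0.25 in GF minus Veh, 0.13 in DM minus Veh and 0.09 in GF minus DM, beside -0.055, 0.027 and -0.084 over all tested miRNAs.

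Several cell-type lists of miRNAs differed beside the GF comparison. All 5 striated muscle miRNAs were below 0 in GF minus Veh (median -0.32), with miR-208, which is encoded in a cardiac myosin gene, past the threshold (-1.34, limma adjusted p = 0.0194). All 5 were below 0 in DM minus Veh as well (median -0.18), where 0 passed. Their summed signal ran from 114900 to 132800 in GF, 126700 to 135900 in DM and 124300 to 170800 in Veh samples, so the groups overlapped. A sum adds signals of different probes, so here and below it mostly follows the brightest miRNAs of a list. In GF miR-208 read 10.25, against 15.90 for miR-133b. Of the 4 leukocyte miRNAs 3 were below 0 in GF minus Veh (median -0.25), with miR-142-5p past the threshold (-0.64, limma adjusted p = 0.0367). Of the others, miR-142-3p was at -0.48 and miR-150 at -0.0097, while miR-223 went the other way at 0.51 (limma, adjusted p = 0.0611). The calls of miR-208 and miR-142-5p stand beside 7.88% of tested miRNAs called in GF minus Veh. Both were lost when arrays were joined more widely into 8 samples, where 0 miRNAs were called. They were also lost without Veh 1 and 3, Veh 2, Veh 4 or GF 2 and 4, each with 0 miRNAs called. The sums of the leukocyte list, 3731 to 4399 in GF, 3846 to 4846 in DM and 4395 to 4646 in Veh, overlapped. The sums of the endothelial list did not overlap between GF and Veh, nor between GF and DM. They ran from 15210 to 16490 in GF, 17050 to 20310 in DM and 18760 to 23220 in Veh. Of its 3 miRNAs 2 were tested, both below 0 in GF minus Veh (median -0.37), and miR-222 was above background on no array. In GF miR-126 read 13.96 and miR-221 read 6.97, so the endothelial sum is nearly all miR-126. The sums of the red cell list, 4603 to 5936 in GF, 3447 to 6177 in DM and 6148 to 7349 in Veh, did not overlap between GF and Veh either. Both of its miRNAs were below 0 in GF minus Veh (median -0.35) and in DM minus Veh (median -0.58). Among single tested miRNAs 26.7% did not overlap in GF against Veh and 14.5% in GF against DM. That share was not computed for sums. In the fibroblast-rich list 2 of 3 were below 0 in GF minus Veh (median -0.48). These were miR-199a-5p at -0.48 and miR-214 at -0.57, while miR-21 was at 0.32. Its sums ran from 11570 to 15660 in GF, 12290 to 14770 in DM and 10410 to 13380 in Veh. They were nearly all miR-21, which read 13.68 in GF, against 8.78 for miR-199a-5p and 8.11 for miR-214. In the smooth muscle list 0 of 2 were below 0 in GF minus Veh (median 0.13, sums of 14210 to 18180 in GF, 14750 to 16460 in DM and 11690 to 18930 in Veh). No miRNA of the endothelial, red cell, fibroblast-rich or smooth muscle lists passed in any contrast (limma). The part of these lists in the values of miR-30 was not tested.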

How the data were processed

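Heart RNA was measured on 15 one-colour Agilent miRNA arrays. Per the file headers, the authors read them with Feature Extraction 9.5.3.1; the deposited intensity per spot is background-subtracted and not scaled between arrays. The authors' deposited log2 values are log2 total gene signal minus the mean of the Veh arrays (recomputed within 2.1e-06), kept per the file headers where the raw value was at least 25 in 50% of samples of 1 group. Their deposited p-values and log fold changes come from a test of 3 groups. Flag columns, a deposited unit of other kind, marked outlier spots, which were dropped (153 to 296 per array), and spots above background.

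Signals were averaged per probe, scaled to each array's 75th percentile over 254 probes above background on all arrays, floored at 19.8 and log2-transformed. Testing a miRNA required a signal above background in 3 or more of a group's 5 arrays. Differences used limma 3.58.1 (R 4.3.3, lmFit and eBayes, Benjamini-Hochberg within a contrast) over 10 distinct samples; pairs and brightness used two-sided exact permutation tests (scipy 1.17.1). The labels number the arrays of each group. Deviations from the group means correlated over 0.1 in 4 of 4 same-numbered GF and Veh pairs (0.15 to 0.47) and in 3 of 21 differently numbered pairs. They did so in 2 of 5 DM and Veh pairs and 0 of 4 GF and DM pairs. For the replicate block, the numbers were taken to pair GF with Veh arrays, from the data and not the labels. In each of the 4 pairs both arrays lie on the same slide, and a part of the slide was not tested. The pairing conflicts with the distinct samples. GF 1 and GF 5 count as 1 sample, and so do GF 2 and GF 4, while Veh 1, Veh 2, Veh 4 and Veh 5 lie in different samples. The replicate-block fits count both arrays of a close pair. The fit was tested on simulated data. The planned normexp alternative used the median signal (offset 50), since the files hold no mean signal. Named miRNAs are all members and probes, seed-sharing and star forms, the 3 most alike, and a matrix list; members and lists were chosen with earlier results of these data known.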

Additional observations from a re-analysis of the deposited data

Results flagged for a closer look

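Among 16 sets of Veh values checked for a sample far from the others (each member, each within-sample ratio and array brightness, n = 4), 1 stood apart; chance alone gives about 1 in 20. The log2 ratio of miR-30b-5p to miR-30d was 0.382 in the sample of Veh replicates 1 and 3 and between 0.805 and 0.844 in the other Veh samples. The same ratio was 0.31 in the sample of DM replicates 3 and 5, the lowest of all 10 samples, and 0.60 or more in the remaining DM and GF samples. Groups of 3 samples were not checked.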

How the results depend on the processing

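The count of members past the threshold was 0 in each contrast under all alternatives but 2: it was 1 (miR-30e, GF minus Veh, -0.14) with 15 arrays as independent samples and with slide as a block. Leaving out a sample gave 0 to 0. With the replicate block over 15 arrays, miR-30e was -0.16 in GF minus Veh (limma, adjusted p = 0.0544) and the count 0; with GF and Veh arrays alone in that block it was -0.15 (adjusted p = 0.0923) and the count 0. Set beside the 15 arrays without a block, miR-30e was no longer called and no other member's call changed. Its SE was 0.054 with the replicate block over 15 arrays and 0.047 without it, and its limma adjusted p without it was 0.0333. Of 425 member values under alternatives 60 changed sign, and 0 of these passed the threshold. With 15 arrays 0 of the 30 pair tests passed (exact permutation tests).

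Signs changed as follows; the cause was not tested. In GF minus Veh, miR-30b-5p was 0.0054 with 15 arrays and with slide as a block, 0.065 within slide 1, 0.10 under both quantile normalization and the percentile over all probes, 0.29 both unscaled and in the authors' values, and 0.028 with the hur control spots. miR-30e was 0.022 with the percentile over all probes, 0.21 with no scaling and 0.22 with the authors' values, and miR-30d was -0.053 within slide 2. In DM minus Veh, miR-30b-5p was 0.10 within slide 1 and 0.11 with the hur spots. miR-30e was 1.3e-05 with slide as a block, 0.0065 with the percentile over all probes, 0.16 with the hur spots, 0.030 within slide 2, 0.016 with 8 samples and 0.012 with the mean of all probes. With no scaling, miR-30a was -0.076, miR-30c -0.00082 and miR-30d -0.062; with the authors' values miR-30a was -0.074 and miR-30d -0.074. In GF minus DM, miR-30b-5p was -0.037 within slide 1, -0.082 with the hur spots and -0.020 with the replicate block. miR-30a was -0.091 with the hur spots and -0.0024 within slide 2. miR-30c was 0.080 with the percentile over all probes, 0.061 with quantile, 0.40 with no scaling and with the authors' values, and 0.0015 without the miR-30 probes. miR-30d was 0.10, 0.055, 0.43, 0.43 and 0.026 under the same 5 settings, and 0.038 with total gene signal. miR-30e was 0.016 with the percentile over all probes, 0.34 with no scaling and 0.35 with the authors' values.

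Leaving out 1 sample, GF minus Veh ranged between -0.15 and -0.07 for miR-30e, 0.04 and 0.09 for miR-30a, 0.03 and 0.15 for miR-30c, -0.11 and 0.041 for miR-30b-5p and -0.025 and 0.11 for miR-30d. DM minus Veh ranged between 0.07 and 0.19 for miR-30c, 0.02 and 0.08 for miR-30a, -0.14 and 0.059 for miR-30b-5p, -0.0068 and 0.097 for miR-30d, and -0.025 and 0.015 for miR-30e. GF minus DM ranged between -0.0040 and 0.051 for miR-30a, -0.093 and 0.10 for miR-30b-5p, -0.11 and 0.010 for miR-30c, -0.056 and 0.044 for miR-30d, and -0.14 and -0.06 for miR-30e.

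Among within-sample ratios, miR-30a to miR-30c in GF minus Veh was 0.025 with 15 arrays and 0.0093 with the mean of all probes. With that mean, miR-30a to miR-30d was 0.0058 in DM minus Veh and miR-30a to miR-30b-5p 0.0021 in GF minus DM, and with normexp miR-30c to miR-30d was 0.0033 in GF minus DM. Array brightness in DM minus Veh was 140.2 within slide 1 and -177.8 over distinct samples.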
